A study of Homo sapiens with 13 samples.

Results

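The genes described here are 9 enzymes of the steps from squalene to cholesterol, SQLE, LSS, CYP51A1, MSMO1, NSDHL, HSD17B7, EBP, SC5D and DHCR7. They were taken by symbol from the 63241 Ensembl gene IDs counted in each of 13 RNA-seq libraries of AC16, a human cell line made by fusing ventricular heart muscle cells with fibroblasts, and all 9 were among the 16756 genes expressed enough to be tested. The study exposed the cells to FCCP, a protonophore that uncouples mitochondria, after preconditioning or without it. The title and design text name the preconditioning as optogenetic and mitochondrial, with a construct called mOpto. The groups were preconditioning+FCCP (3 libraries), preconditioning (4), FCCP without preconditioning (3) and control, with neither (3). Every library is labelled wildtype. The design text sets control cells apart from cells with mOpto, and the labels of single libraries do not say which cells held it or were lit, so effects of the construct and of light cannot be told apart from those of the treatments. One cell line was used, and the labels do not say that replicates were separate cultures, so p-values measure the spread between these libraries only, which may be technical.

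Cholesterol is built in the endoplasmic reticulum. The squalene epoxidase SQLE and the cyclase LSS make lanosterol, the first sterol, from squalene. CYP51A1, a cytochrome P450, removes one methyl group, and MSMO1, NSDHL and HSD17B7 remove the next ones as an oxidase, a dehydrogenase and a ketoreductase. EBP shifts a double bond, SC5D brings in another, and the reductase DHCR7 takes out the double bond beside it. When sterols in the membrane are low, SREBP proteins leave for the nucleus and, with the factors NF-Y and Sp1, raise transcription of most genes of the pathway. Heart and muscle cells make sterols at a low rate compared with liver, for their own membranes.

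Libraries held 14970803 to 20636229 gene counts. By the percentage of multiply aligned reads the libraries formed a higher set, with 7.13% to 11.5% in 6 libraries (control 1 and 2, FCCP 1 to 3 and preconditioning+FCCP 3) and a lower set, with 3.16% to 5.22% in the other 7. In the higher set, mitochondrial genes took 1.55% to 9.58% of counts, against 1.00% to 3.00% in the lower. All FCCP libraries are thus in one set and all preconditioning libraries in the other, so no set holds both. Values within a set are given beside the results where both groups have a library there. The least different pair of replicates, preconditioning 1 and 2, still had a chi-square of 3.32 per degree of freedom over genes, so all libraries were counted singly. Of 17 cardiomyocyte markers 6 were tested, the troponin gene TNNT2 was listed at 0 in every library and the myosin genes MYH6 and MYH7 had 3 and 4 counts in all libraries together. Their summed level was 7.07 to 8.71 CPM (counts per 1000000 of a library, after TMM scaling) in preconditioning+FCCP, 6.04 to 12.2 CPM in preconditioning, 4.37 to 10.4 CPM in FCCP and 10.2 to 13.8 CPM in control libraries. Of 10 fibroblast markers all 10 were tested, with a summed level of 2704 to 4364 CPM in preconditioning+FCCP, 9453 to 10070.0 CPM in preconditioning, 9123 to 10710.0 CPM in FCCP and 7409 to 14520.0 CPM in control libraries. Smooth muscle markers, 5 of 5 tested, summed to 140.3 to 211 CPM in preconditioning+FCCP, 414 to 474 CPM in preconditioning, 295 to 354 CPM in FCCP and 239 to 339.9 CPM in control libraries. Endothelial markers, 4 of 5 tested, summed to 2.59 to 4.69 CPM in preconditioning+FCCP, 20.9 to 25.8 CPM in preconditioning, 8.95 to 13.9 CPM in FCCP and 7.29 to 16.3 CPM in control libraries. The preconditioning+FCCP libraries were thus below all others in the fibroblast, smooth muscle and endothelial sums. The preconditioning libraries were above all others in the smooth muscle and endothelial ones. In these libraries most of the smooth muscle sum was CALD1, at 351 ± 13.1 CPM, and most of the endothelial one TEK, at 19.3 ± 1.38 CPM (SD, n = 4). Against control CALD1 was the 1 smooth muscle marker called higher. CNN1 was at 17.8 ± 3.50 CPM, against 24.7 ± 7.92 CPM in control (n = 3), and was not called. PECAM1 and KDR were not called either. Most of the 9 sterol genes were also lower in preconditioning+FCCP than in preconditioning, and higher in preconditioning than in control. Most were not lower in preconditioning+FCCP than in control. Their median log2 change was 0.07 there, and the 1 gene called, SC5D, was higher. Among the endothelial markers VWF rose with preconditioning (2.89 ± 0.72, adjusted p = 0.0108). VWF fell when preconditioning+FCCP was set against preconditioning (−4.61 ± 0.83, adjusted p = 0.000599). Its levels were low, at 0.114 ± 0.113 CPM in preconditioning+FCCP, 2.74 ± 1.03 CPM in preconditioning and 0.367 ± 0.305 CPM in control libraries. TEK likewise rose (0.99 ± 0.31, adjusted p = 0.0315) and fell (−2.63 ± 0.34, adjusted p = 5.57e-05) in these comparisons. Immune markers, 2 of 5 tested, summed to 1.60 to 3.33 CPM in preconditioning+FCCP, 2.10 to 3.22 CPM in preconditioning, 6.38 to 8.84 CPM in FCCP and 1.38 to 5.28 CPM in control libraries, and CD3E was listed at 0. The part of these markers in the results below was not tested. In bulk RNA, fewer cells of a type and less RNA per cell cannot be told apart.

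The IDs are ENSG00000104549 (SQLE), ENSG00000160285 (LSS), ENSG00000001630 (CYP51A1), ENSG00000052802 (MSMO1), ENSG00000147383 (NSDHL), ENSG00000132196 (HSD17B7), ENSG00000147155 (EBP), ENSG00000109929 (SC5D) and ENSG00000172893 (DHCR7). The depth behind the 9 genes was uneven. CYP51A1 had 354 counts in all 13 libraries together, from 2 to 88 per library, while each of the others had at least 175 counts in every library. In GENCODE 29, a coding gene on the same strand, ENSG00000285772, shares 79.4% of the exonic bases of CYP51A1 and was listed at 0 in every library. The antisense gene CYP51A1-AS1 shares 138 bases. The protocol names a directional and a non-directional library without saying which was used, so sense and antisense reads may be mixed. LSS shares 6.19% and 1.69% of its exonic bases with antisense genes of 16 and 80 counts in all, against 32206 for LSS. Reads that overlap several genes made up 11.0% to 12.4% of all reads and were counted for none. The level of CYP51A1 is therefore uncertain, and it passed the filter on low counts through its preconditioning libraries, so counts and medians are also given for the other 8 genes. HSD17B7 has a pseudogene copy, HSD17B7P2, with at most 19 counts in a library, against 175 to 569 for HSD17B7.

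Because the genes moved together in several comparisons, their promoters were searched for the 3 motifs of sterol control. RefSeq's table (GRCh38.p14) holds a promoter for 8 of the 9. The 150 bases before the start listed first for each are printed here, 5′ to 3′ along the gene. Each CCAAT box, the motif of NF-Y, is in capitals (CCAAT, or ATTGG where it lies on the other strand).
LSS (chr21:46228775-46228924, minus strand): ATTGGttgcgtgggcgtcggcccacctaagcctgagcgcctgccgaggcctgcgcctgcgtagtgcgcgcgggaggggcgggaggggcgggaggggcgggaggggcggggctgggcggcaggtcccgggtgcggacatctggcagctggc
CYP51A1 (chr7:92134478-92134627, minus strand): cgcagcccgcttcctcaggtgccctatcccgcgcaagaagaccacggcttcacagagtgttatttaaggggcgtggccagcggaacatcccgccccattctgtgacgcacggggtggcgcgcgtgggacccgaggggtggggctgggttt
MSMO1 (chr4:165327519-165327668, plus strand): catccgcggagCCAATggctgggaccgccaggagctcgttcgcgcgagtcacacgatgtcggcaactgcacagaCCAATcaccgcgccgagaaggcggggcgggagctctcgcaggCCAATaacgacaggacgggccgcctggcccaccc
NSDHL (chrX:152830913-152831062, plus strand): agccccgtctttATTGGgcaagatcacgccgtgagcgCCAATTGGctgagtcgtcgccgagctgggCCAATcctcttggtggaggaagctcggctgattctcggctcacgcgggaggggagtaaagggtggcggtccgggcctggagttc
HSD17B7 (chr1:162790552-162790701, plus strand): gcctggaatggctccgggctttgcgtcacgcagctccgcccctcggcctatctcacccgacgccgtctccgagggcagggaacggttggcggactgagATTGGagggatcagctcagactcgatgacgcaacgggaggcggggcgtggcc
EBP (chrX:48521658-48521807, plus strand): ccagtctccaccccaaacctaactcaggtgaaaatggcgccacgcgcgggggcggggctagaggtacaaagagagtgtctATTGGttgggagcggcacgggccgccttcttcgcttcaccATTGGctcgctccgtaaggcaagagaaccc
SC5D (chr11:121292621-121292770, plus strand): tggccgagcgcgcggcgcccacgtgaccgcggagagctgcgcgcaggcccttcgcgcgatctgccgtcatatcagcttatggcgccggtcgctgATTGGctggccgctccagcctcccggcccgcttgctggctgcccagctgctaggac
DHCR7 (chr11:71448394-71448543, minus strand): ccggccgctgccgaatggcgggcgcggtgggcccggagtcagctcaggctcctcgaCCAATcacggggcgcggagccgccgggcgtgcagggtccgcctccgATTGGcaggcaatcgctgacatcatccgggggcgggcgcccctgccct
In the 250 bases before the start, searched on both strands, a CCAAT box was found in 7 of 8 promoters and at least 2 in 4 of them, against 32.0% and 9.53% of 35116 promoters in the table. NSDHL held 5, of which 2 overlap, MSMO1 4, EBP 3 and DHCR7 2. The window of CYP51A1 held none. The GC box of Sp1 (GGGCGG) was found in 7 of 8, with 6 in LSS, against 42.6% of all promoters. The core of the sterol regulatory element in its strict form (TCACNCCAC) was in none of the 8 windows and in 0.883% of all promoters. A match is a string of letters and not a bound site. SC5D and DHCR7 each have a further annotated start. The window of the further start of SC5D held 1 CCAAT box and 1 GC box. That of DHCR7, which lies upstream of the start used here, held none of the 3 motifs.

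**Figure D1:**
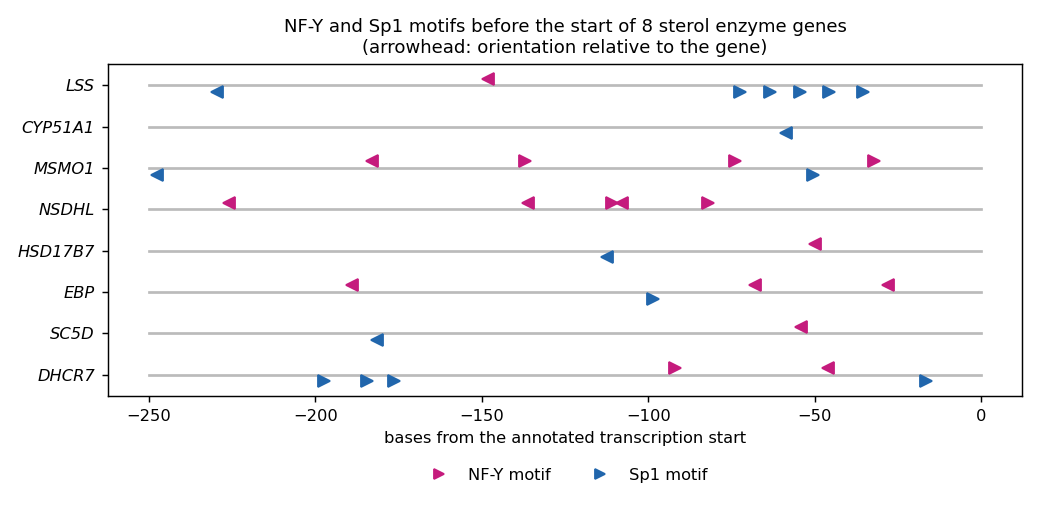
Position of NF-Y motifs (CCAAT boxes, pink) and Sp1 motifs (GC boxes, blue) in the 250 bases before the start listed first for each of 8 genes. The x axis gives bases from the start and arrowheads the orientation. NSDHL and MSMO1 hold the most NF-Y motifs, 5 and 4, and CYP51A1 holds none.

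Levels between genes are compared as CPM per kilobase of exon (GENCODE 29 lengths). In control libraries NSDHL, MSMO1 and EBP led, at 23.8 ± 5.70, 18.6 ± 4.85 and 15.7 ± 6.14 CPM per kilobase (SD, n = 3). SQLE, DHCR7 and LSS followed at 13.2 ± 3.44, 12.5 ± 0.215 and 10.2 ± 1.88, where neighbours from NSDHL down to DHCR7 differed by no more than the larger of their SDs. SC5D, HSD17B7 and CYP51A1 closed the order at 6.48 ± 0.542, 2.51 ± 0.345 and 0.143 ± 0.163 CPM per kilobase, each further below its neighbour than the SDs. With preconditioning the order was led by MSMO1 (90.3 ± 18.5, n = 4) and DHCR7 (64.1 ± 6.61), with NSDHL and then LSS next (48.7 ± 2.99 and 37.5 ± 3.28), and EBP was the seventh, at 12.1 ± 1.10 CPM per kilobase, within an SD of SC5D (13.2 ± 2.25), as SQLE (36.9 ± 3.35) was of LSS. In preconditioning+FCCP libraries NSDHL (24.9 ± 2.85, n = 3) and MSMO1 (24.2 ± 6.04) led again, SC5D was the third (14.3 ± 1.46) and LSS the seventh (6.67 ± 1.24). There NSDHL and MSMO1 lay within the larger of their SDs, as did neighbours from SC5D over SQLE (13.8 ± 1.23) and DHCR7 (11.6 ± 5.15) to EBP (9.73 ± 2.66). HSD17B7 was the eighth and CYP51A1 the ninth of 9 genes in each of the 4 groups. The level and place of CYP51A1 are uncertain. In GENCODE 29 it shares 79.4% of its exonic bases with another gene on its strand. Reads on several genes were counted for none, while its full exon length was used here.

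Preconditioning on its own was set against control to ask what it did to the resting cell. Sterol enzymes were higher: 8 of 9 genes rose (edgeR's quasi-likelihood test, Benjamini-Hochberg adjusted p under 0.05 over all genes tested), 7 of 8 without CYP51A1, and none fell. Among all genes tested 10.5% were called higher, 13.0% lower and 23.6% in either direction. The median log2 change of the 9 genes was 1.48, or 1.35 without CYP51A1, against −0.02 over all genes tested. DHCR7, the last of the 9 in the pathway, stood at 282, 276, 226 and 283 CPM in preconditioning libraries 1 to 4, against 51.7, 52.8 and 51.1 CPM in control libraries 1 to 3. Its 5.14-fold rise was far outside the spread of both groups (log2 change 2.36 ± 0.37, adjusted p = 0.00186). MSMO1, the oxidase that starts removal of a methyl pair, was at 280.3, 283, 182 and 299 CPM with preconditioning, against 58.1, 64.9 and 37.9 CPM in control. Preconditioning 3 was the lowest of its group for this gene and still above every control library (log2 change 2.28 ± 0.34, adjusted p = 0.00154).

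The cyclase LSS was at 298, 279, 266 and 242 CPM with preconditioning and at 63.5, 89.4 and 69.0 CPM in control libraries, a 3.67-fold rise (log2 change 1.87 ± 0.25, adjusted p = 0.00117). SQLE, a rate-limiting enzyme of the pathway, was at 164, 166, 137 and 167 CPM with preconditioning and at 60.5, 69.5 and 40.5 CPM in control (log2 change 1.48 ± 0.24, adjusted p = 0.0021). The groups did not overlap for either gene. How many of all genes tested show no overlap was not counted, in this or any other comparison. NSDHL was between 91.4 and 104.7 CPM in preconditioning libraries and between 34.6 and 56.2 CPM in control, and HSD17B7 between 22.6 and 32.8 CPM in preconditioning libraries and between 10.6 and 13.8 CPM in control. HSD17B7, NSDHL and SC5D rose by 1.22 ± 0.24, 1.03 ± 0.24 and 1.02 ± 0.18 on the log2 scale, with adjusted p of 0.00396, 0.00758 and 0.00254. CYP51A1 had 59, 88, 48 and 80 counts in preconditioning libraries, against 3, 3 and 19 counts in control, so that 1 control library held most of the control reads (log2 change 2.90 ± 0.66, adjusted p = 0.00697). EBP, the sterol isomerase, was the one gene not called. It was at 26.4, 32.2, 27.5 and 30.3 CPM with preconditioning, inside the range of control, where it was at 46.4, 46.5 and 20.8 CPM (log2 change −0.38 ± 0.28, adjusted p = 0.343). Without control 3 the log2 change of EBP was −0.68 ± 0.25 and the gene was called lower (adjusted p = 0.043).

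**Figure D2:**
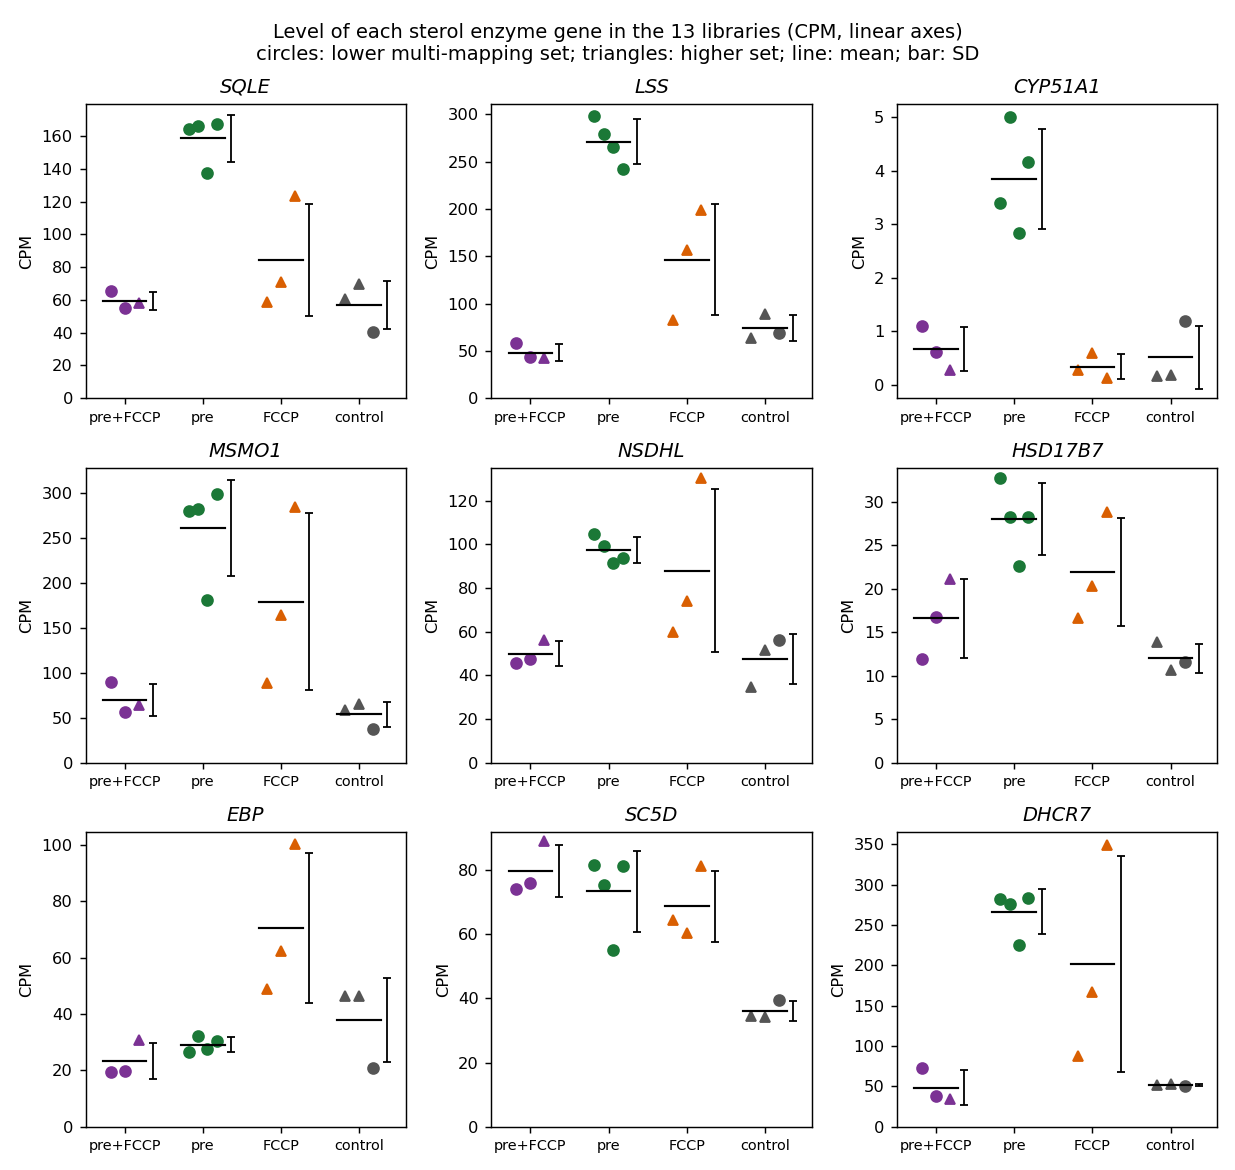
Level of each gene in CPM (y axes, linear) in every library of preconditioning+FCCP (pre+FCCP), preconditioning (pre), FCCP and control; circles and triangles are libraries with a lower and a higher share of reads aligned to several places, lines are means and bars SD (n = 3, 4, 3 and 3). Preconditioning libraries stand above control for each gene shown except EBP, with CYP51A1 at low counts. How many of all genes tested do so was not counted. Of the genes shown, SC5D stays high in pre+FCCP.

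Within the lower set control 3 is the only control library and is assumed to vary like the rest. The log2 changes there were 2.39 ± 0.31 for DHCR7, 1.98 ± 0.21 for LSS and 1.97 ± 0.19 for SQLE, and EBP turned to 0.49 ± 0.18. With a term for the set in the fit of all libraries 6 of 9 genes were called (6 of 8 without CYP51A1). Calls among all genes also became fewer in that fit, as given below. NSDHL, at 1.00 ± 0.29 (adjusted p = 0.0726), and CYP51A1, at 1.94 ± 0.57 (adjusted p = 0.0783), lost their calls. Leaving out each library in turn, the call of NSDHL ended without control 1, the one call of the 9 to end so.

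FCCP without preconditioning was compared with control to ask for the effect of uncoupling alone. Here 4 of 9 genes rose, none fell, and 5 were not called (4 of 8 rose without CYP51A1). The median log2 change was 0.89 (0.91 without CYP51A1), against −0.04 over all genes tested, of which 1.6% were called higher, 1.92% lower and 3.52% in either direction. DHCR7 was at 87.9, 168 and 349 CPM in FCCP libraries 1 to 3, against the 51.7, 52.8 and 51.1 CPM of control. The lowest FCCP library was above the highest control library, while FCCP libraries among themselves spanned 3.97-fold (log2 change 1.96 ± 0.38, adjusted p = 0.0185). MSMO1 was at 88.5, 164 and 284 CPM with FCCP, also above every control library (log2 change 1.74 ± 0.34, adjusted p = 0.0185). SC5D, the desaturase, was at 64.4, 60.4 and 81.2 CPM in FCCP libraries, against 34.3, 34.3 and 39.5 CPM in control, and had the least spread among the genes that rose (log2 change 0.93 ± 0.19, adjusted p = 0.0188). LSS passed narrowly, at 83.2, 157 and 199 CPM with FCCP (log2 change 0.98 ± 0.26, adjusted p = 0.0467), and FCCP 1 lay within the range of control.

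NSDHL (0.89 ± 0.25, adjusted p = 0.0605), HSD17B7 (0.87 ± 0.25, adjusted p = 0.0693) and EBP (0.89 ± 0.31, adjusted p = 0.115) had log2 changes of a like size that were not called. Their libraries did not overlap those of control, and the share of all genes without overlap was not counted. EBP was at 48.7, 62.4 and 100.3 CPM in FCCP libraries, the highest levels of this gene in the study. SQLE overlapped control, at 59.0, 70.8 and 123 CPM with FCCP (log2 change 0.57 ± 0.25, adjusted p = 0.208), and CYP51A1 had 4, 9 and 2 counts (log2 change −0.58 ± 0.77, adjusted p = 0.715). FCCP 3 was the highest FCCP library for all of the 8 genes other than CYP51A1 and FCCP 1 the lowest for 7 of them. FCCP 1 also had the lowest share of reads aligned to several places of the 3, 7.13%, and the highest mitochondrial share, 6.49% against 1.94% and 1.55%. Whether these go with its sterol genes was not tested.

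The calls of the FCCP comparison rested on few libraries and on the shared fit. Without FCCP 3 none of the 9 genes was called by edgeR (6 at an unadjusted p under 0.05), and DHCR7 was at 1.29 ± 0.29 (adjusted p = 0.0514). Without FCCP 1 there were 6 calls. The call of LSS ended in 10 of 13 such fits and that of SC5D also without control 1 or control 2. With the compared groups alone or within the higher set none was called either (7 and 6 at an unadjusted p under 0.05), while 7 were called without control 3, FCCP 1 and preconditioning+FCCP 3 together and 6 by DESeq2. In the higher set, with 2 control libraries, the log2 changes were 1.98 ± 0.46 for DHCR7, 1.57 ± 0.39 for MSMO1, 1.04 ± 0.22 for SC5D and 0.97 ± 0.33 for LSS (adjusted p = 0.126, 0.137, 0.107 and 0.218).

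FCCP after preconditioning was compared with preconditioning alone. Here the sterol enzymes were lower: 7 of 9 genes fell (6 of 8 without CYP51A1) and none rose. The median log2 change was −1.42 (−1.19 without CYP51A1), against 0.02 over all genes, of which 19.2% were called lower, 20.2% higher and 39.4% in either direction. LSS was at 58.6, 43.5 and 42.7 CPM in preconditioning+FCCP libraries 1 to 3, against 298, 279, 266 and 242 CPM with preconditioning alone. The groups were 5.62-fold apart with no overlap (log2 change −2.49 ± 0.26, adjusted p = 1.18e-05). DHCR7 was at 73.0, 38.1 and 34.1 CPM in preconditioning+FCCP libraries, 5.51-fold below preconditioning (log2 change −2.46 ± 0.37, adjusted p = 0.000176). MSMO1 was at 89.5, 55.9 and 64.3 CPM and SQLE at 65.3, 55.0 and 58.0 CPM in preconditioning+FCCP libraries, every one of them below every preconditioning library (log2 changes −1.90 ± 0.33, adjusted p = 0.000487, and −1.42 ± 0.24, adjusted p = 0.000383).

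NSDHL (−0.97 ± 0.24, adjusted p = 0.00478) and HSD17B7 (−0.75 ± 0.24, adjusted p = 0.0199) also fell. NSDHL was between 45.6 and 56.3 CPM and HSD17B7 between 11.9 and 21.1 CPM in preconditioning+FCCP libraries. CYP51A1 had 19, 15 and 5 counts in preconditioning+FCCP libraries, against 59, 88, 48 and 80 counts with preconditioning (log2 change −2.52 ± 0.63, adjusted p = 0.00526). SC5D was at 74.1, 75.7 and 88.9 CPM in preconditioning+FCCP libraries and at 81.4, 75.4, 55.0 and 81.2 CPM with preconditioning. These ranges overlapped, and SC5D was not called (log2 change 0.12 ± 0.17, adjusted p = 0.609). EBP was at 19.5, 19.96 and 30.9 CPM in preconditioning+FCCP libraries and was not called either (log2 change −0.31 ± 0.29, adjusted p = 0.407). The call of HSD17B7 ended without preconditioning 1, preconditioning+FCCP 1 or preconditioning+FCCP 2. Within the lower set, which leaves 2 preconditioning+FCCP libraries, 8 of 9 genes were called lower (7 of 8 without CYP51A1). EBP was now among them, at −0.56 ± 0.14 (adjusted p = 0.00405), and SC5D was at 0.03 ± 0.15. The share of all genes called within this set is not given here.

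**Figure D3:**
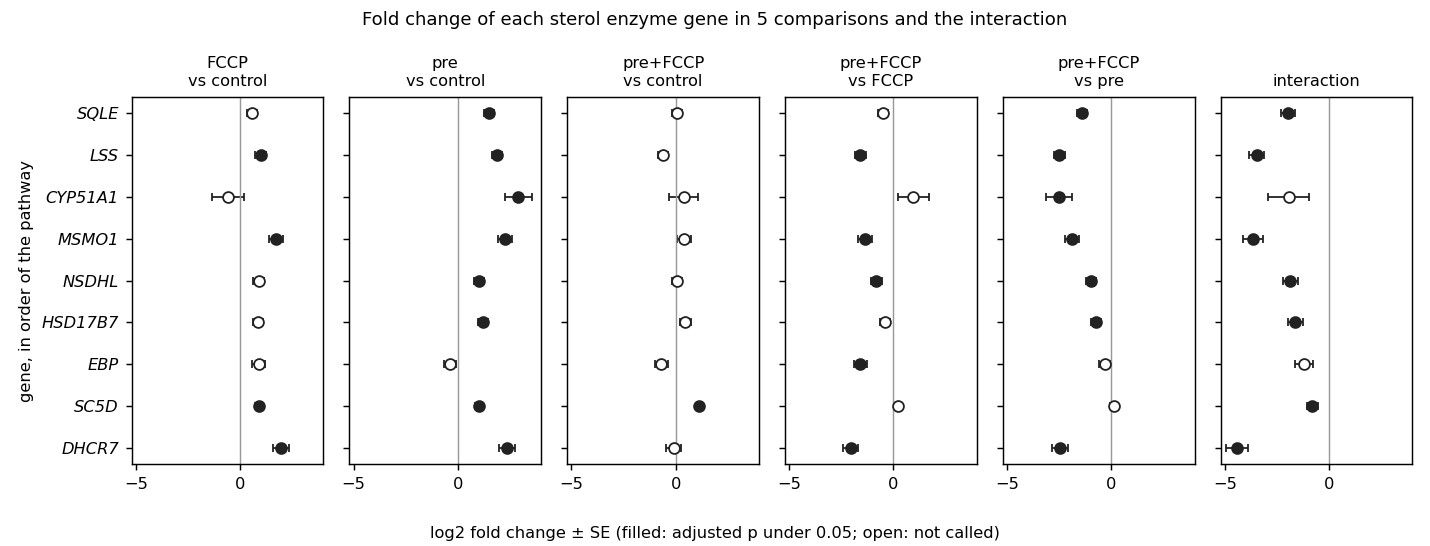
Log2 fold change ± SE of each gene (rows, in the order of the pathway) in 5 comparisons and the interaction; filled points passed an adjusted p of 0.05. Pre stands for preconditioning. Points lie right of 0 for 8 genes with FCCP alone and for 8 with preconditioning alone, and left of 0 for 8 genes when preconditioning+FCCP is set against preconditioning.

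The 2 FCCP-treated groups were compared to ask what preconditioning changed under FCCP. Of the 9 genes 5 were lower with preconditioning+FCCP (5 of 8 without CYP51A1) and none was higher. The median log2 change was −0.82 (−1.09 without CYP51A1), against 0.01 over all genes, of which 17.7% were called lower, 17.9% higher and 35.7% in either direction. DHCR7 (−2.06 ± 0.38, adjusted p = 0.00117), LSS (−1.60 ± 0.26, adjusted p = 0.000588) and EBP (−1.59 ± 0.31, adjusted p = 0.00162) fell most, and no library of one group reached the other for these 3 genes. MSMO1 (−1.36 ± 0.34, adjusted p = 0.00684) fell with an overlap, since preconditioning+FCCP 1 at 89.5 CPM was just above FCCP 1 at 88.5 CPM. NSDHL fell by 0.82 ± 0.25, adjusted p = 0.0185, on the log2 scale. SQLE (−0.50 ± 0.25, adjusted p = 0.121), HSD17B7 (−0.40 ± 0.25, adjusted p = 0.22), SC5D (0.21 ± 0.18, adjusted p = 0.383) and CYP51A1 (0.96 ± 0.74, adjusted p = 0.33) were not called. The call of NSDHL ended without FCCP 3, preconditioning+FCCP 1 or preconditioning+FCCP 2, and with a term for the set the calls of NSDHL, at −0.86 ± 0.30 (adjusted p = 0.0521), and MSMO1, at −1.18 ± 0.44 (adjusted p = 0.0696), ended. Within the higher set, where preconditioning+FCCP 3 is the only library of its group and is assumed to vary like the rest, none of the 9 was called by edgeR (4 at an unadjusted p under 0.05), with −2.55 ± 0.64 (adjusted p = 0.0867) for DHCR7 and −1.77 ± 0.46 (adjusted p = 0.0867) for LSS.

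Against control, cells given both treatments differed in 1 sterol gene. SC5D was at 74.1, 75.7 and 88.9 CPM in preconditioning+FCCP libraries, against 34.3, 34.3 and 39.5 CPM in control, with no overlap (log2 change 1.14 ± 0.19, adjusted p = 0.000759). It was called without each of the 13 libraries in turn, and was at 0.93 ± 0.22 within the lower and 1.41 ± 0.28 within the higher set. The median of the 9 genes was 0.07, also without CYP51A1, and that of all genes −0.04, with 15.0% of genes called higher, 16.2% lower and 31.2% in either direction. For the other 8 genes log2 changes ran from −0.69 ± 0.31, adjusted p = 0.0945, for EBP, to 0.47 ± 0.25, adjusted p = 0.17, for HSD17B7. LSS lay below control in all 3 libraries, at 58.6, 43.5 and 42.7 CPM against 63.5, 89.4 and 69.0 CPM, and missed the threshold (log2 change −0.62 ± 0.26, adjusted p = 0.0771). A p that misses the threshold does not show equal levels: for DHCR7 the change was −0.10 ± 0.37, adjusted p = 0.854, with preconditioning+FCCP 1 above and the other 2 libraries below control, and it was 0.12 with library totals as scaling.

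Whether FCCP acted differently in preconditioned cells was tested as an interaction, in which the log2 change of FCCP in cells without preconditioning is subtracted from that in preconditioned cells. It was negative in all 9 genes and called in 7 (7 of 8 without CYP51A1), against 9.6% of all genes called negative, 9.38% called positive and 19.0% called in either direction. The median was −1.94 on the log2 scale (−1.92 without CYP51A1), against 0.07. DHCR7 had the most negative value (−4.42 ± 0.53, adjusted p = 0.000316), followed by MSMO1 (−3.64 ± 0.48, adjusted p = 0.000467) and LSS (−3.47 ± 0.36, adjusted p = 0.000171). For these 3 genes FCCP gave a rise without preconditioning and a fall with it, both called. SQLE (−1.98 ± 0.34, adjusted p = 0.00192), NSDHL (−1.86 ± 0.34, adjusted p = 0.00272) and HSD17B7 (−1.62 ± 0.35, adjusted p = 0.00576) had an FCCP effect that passed the test only in preconditioned cells, and SC5D (−0.81 ± 0.25, adjusted p = 0.0361) one that passed only in cells without it. EBP (−1.21 ± 0.42, adjusted p = 0.0545) and CYP51A1 (−1.94 ± 1.00, adjusted p = 0.181) were not called. The call of SC5D had the highest adjusted p of the 7 and ended in 8 of 13 fits that left out a library; the other 6 held in all 13. The interaction and the comparisons it is made of share their libraries, so they are not separate evidence. Neither library set holds every group, so the interaction could not be fitted within a set.

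**Figure D4:**
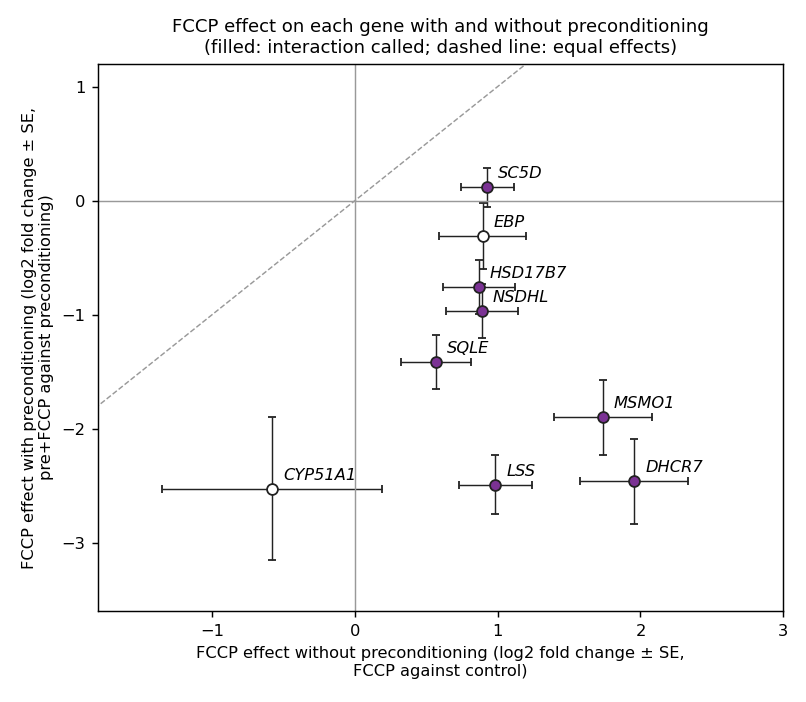
FCCP effect on each gene without preconditioning (x axis, log2 fold change ± SE, FCCP against control) and with it (y axis, preconditioning+FCCP against preconditioning); filled points have a called interaction and the dashed line marks equal effects. All 9 genes lie below the line, with DHCR7, MSMO1 and LSS farthest from it and SC5D nearest.

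Over the 13 libraries, MSMO1, DHCR7, NSDHL, SQLE, LSS and HSD17B7 followed the mean of the other members closely, with Pearson r of log2 CPM between 0.889 and 0.980, while SC5D, CYP51A1 and EBP did so less, with 0.477, 0.472 and 0.131. These r describe libraries that share group and scaling. After group means were taken out, r was 0.878 for DHCR7, 0.870 for MSMO1, 0.827 for LSS, 0.727 for SQLE, 0.666 for NSDHL, 0.488 for SC5D, 0.384 for HSD17B7, 0.312 for EBP and −0.32 for CYP51A1, so that SC5D then stood above HSD17B7. Of all other tested genes, those whose log2 CPM was most like the mean z-score of the 9 included FDFT1, INSIG1, FASN, HMGCS1, ACAT2, FADS2, FADS1, FDPS and SREBF2, with r from 0.972 for FDFT1, the enzyme that makes squalene, down to 0.925 for SREBF2, which encodes an SREBP (n = 13 libraries). At the other end the named gene was COPS5 (−0.91), a subunit of the COP9 signalosome, beside ENSG00000288953 (−0.91) and ENSG00000261600 (−0.90), which have no symbol here.

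The steps on either side were read from lists of related genes, of which the called genes with the smallest adjusted p are named. Of 9 genes of the mevalonate branch that leads to squalene, 7 rose and 1 fell with preconditioning, 6 rose and none fell with FCCP, and 7 fell and none rose when preconditioning+FCCP was set against preconditioning. Over all genes tested 23.6%, 3.52% and 39.4% were called in these comparisons. Of the genes that rose with FCCP, HMGCS1 overlapped control, at 43.5 to 184 CPM against 27.8 to 46.9 CPM, and the others did not. Whether the FCCP calls of this list hold without single libraries was not tested. HMGCS1, an early synthase of the branch (3.52 ± 0.42, adjusted p = 0.000596), ACAT2, the thiolase of the first step (1.92 ± 0.27, adjusted p = 0.00151), and FDPS, which makes farnesyl diphosphate (1.58 ± 0.25, adjusted p = 0.0019), rose with preconditioning with the smallest adjusted p. GGPS1, on a side branch to geranylgeranyl groups, was the gene that fell (−0.93 ± 0.27, adjusted p = 0.0226). Like SC5D, IDI1 was called higher in preconditioning+FCCP against control (1.24 ± 0.28, adjusted p = 0.00431). Against preconditioning IDI1 was not called there (−0.35 ± 0.26, adjusted p = 0.302). The interaction was called negative in 8 of these 9 genes, against 9.6% of all genes. When preconditioning+FCCP was set against preconditioning, HMGCS1 (−3.11 ± 0.42, adjusted p = 7.22e-05), FDPS (−1.75 ± 0.25, adjusted p = 0.000117) and FDFT1 (−1.66 ± 0.28, adjusted p = 0.000404) had the smallest adjusted p, and these also stood among the genes most like the 9.

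Of 7 further enzymes and partners of the steps after squalene, 1 fell and none rose with preconditioning, where 23.6% of all genes were called. EBPL, a relative of EBP, was the one that fell (−0.75 ± 0.21, adjusted p = 0.0186). With FCCP alone, where 3.52% of all genes were called, 1 gene rose, ERG28 (0.92 ± 0.24, adjusted p = 0.0478), which in yeast tethers the demethylating enzymes to each other. When preconditioning+FCCP was set against preconditioning 2 fell, LBR (−1.17 ± 0.22, adjusted p = 0.000981), a sterol reductase that is also a protein of the nuclear envelope, and FAXDC2 (−1.31 ± 0.42, adjusted p = 0.0208), against 39.4% of all genes called. Between preconditioning+FCCP and FCCP 4 fell and none rose, against 35.7% of all genes called, with EBPL (−1.16 ± 0.23, adjusted p = 0.00168), FAXDC2 (−1.67 ± 0.44, adjusted p = 0.00913) and ERG28 (−0.91 ± 0.24, adjusted p = 0.00933) at the smallest adjusted p. The interaction was called in 3, all negative, against 19.0% of all genes, in FAXDC2 (−2.25 ± 0.60, adjusted p = 0.0173), ERG28 (−1.07 ± 0.33, adjusted p = 0.035) and LBR (−0.96 ± 0.32, adjusted p = 0.0474). Whether these genes differ from the 9 was not tested.

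SQLE and CYP51A1 draw electrons from the reductase POR, and MSMO1 and SC5D from cytochrome b5 and its reductases. Of 6 genes of these donors none was called by edgeR with preconditioning (1 at an unadjusted p under 0.05) or with FCCP (2 at an unadjusted p under 0.05). POR was at 0.04 ± 0.26, adjusted p = 0.929, with preconditioning and CYB5A at −0.64 ± 0.33, adjusted p = 0.171, on the log2 scale. With FCCP they were at 0.89 ± 0.28, adjusted p = 0.084, and 0.83 ± 0.36, adjusted p = 0.203. POR was the one gene of the 6 called when preconditioning+FCCP was set against preconditioning, and it rose (1.10 ± 0.25, adjusted p = 0.00317), with 119 ± 8.68 CPM in preconditioning+FCCP and 55.5 ± 4.16 CPM in preconditioning libraries (SD, n = 3 and 4), where SQLE and CYP51A1 fell. Of all genes 39.4% were called there. The interaction of POR was not called (0.21 ± 0.37, adjusted p = 0.723). Between preconditioning+FCCP and FCCP 2 of the 6 fell, CYB5A (−1.94 ± 0.37, adjusted p = 0.0014) and CYB5R3 (−0.79 ± 0.21, adjusted p = 0.00863), against 35.7% of all genes called. Between preconditioning+FCCP and control, with 31.2% of all genes called, 2 rose, POR (1.14 ± 0.28, adjusted p = 0.00653) and CYB5R1 (0.77 ± 0.27, adjusted p = 0.0417), and CYB5A fell (−1.10 ± 0.36, adjusted p = 0.0305).

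**Figure D5:**
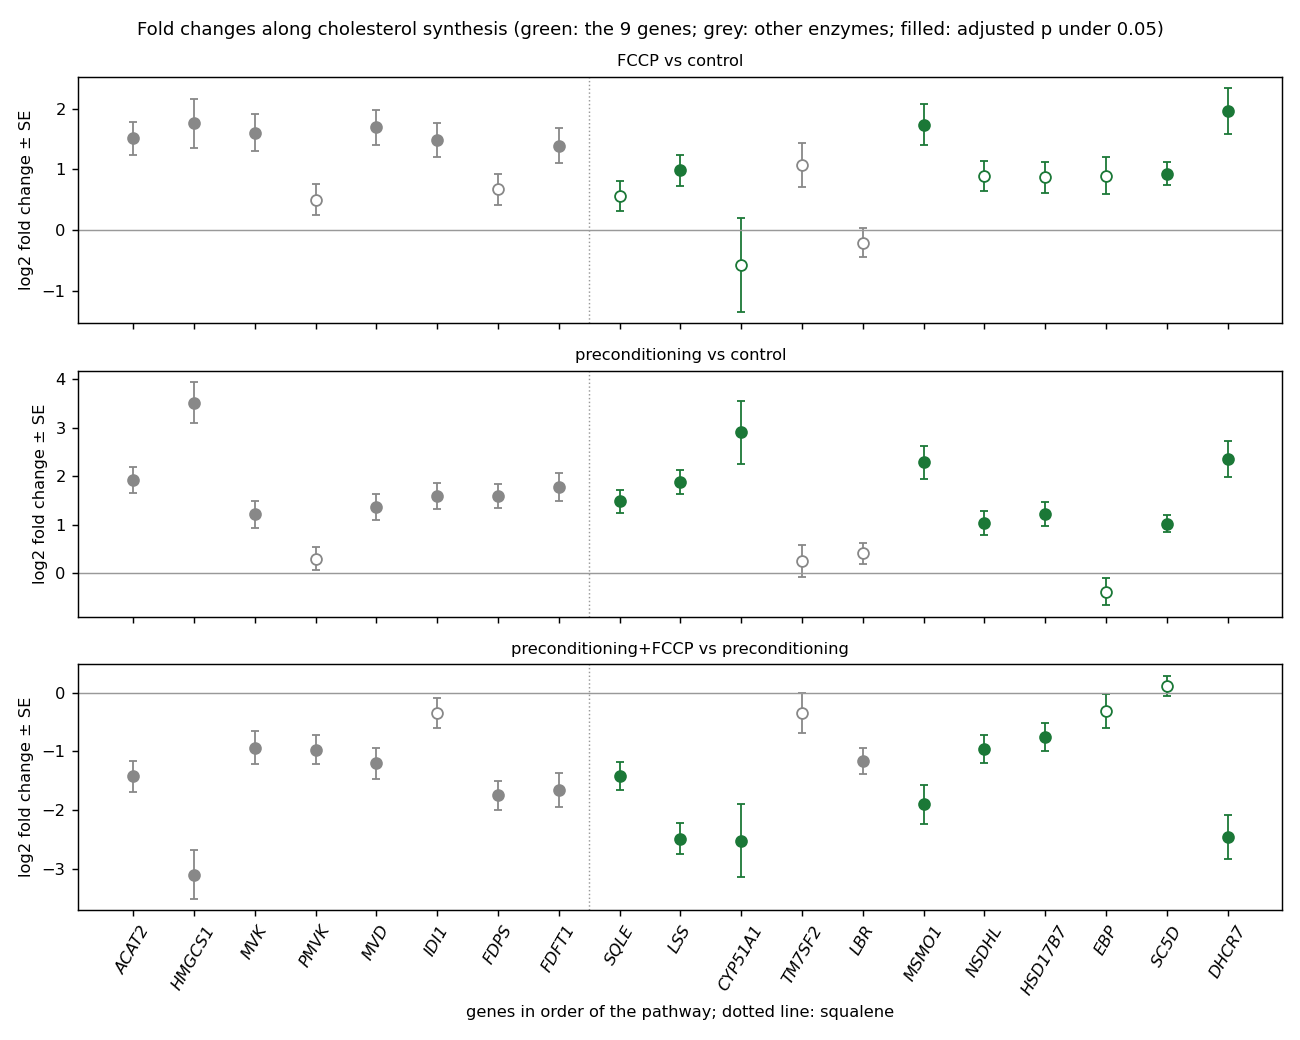
Log2 fold change ± SE along the pathway (x axis, the genes shown in order, squalene at the dotted line) for FCCP against control, preconditioning against control and preconditioning+FCCP against preconditioning; the 9 genes are green, other enzymes grey, and filled points passed an adjusted p of 0.05. Of the green points EBP is the one not filled in the middle panel, and EBP and SC5D are not filled in the lower one.

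Of 7 genes of the SREBP machinery, 4 rose with preconditioning (SREBF2, SREBF1, the retention factor INSIG1 and the protease MBTPS2), 1 rose with FCCP (INSIG1) and the same 4 genes fell when preconditioning+FCCP was set against preconditioning, with 23.6%, 3.52% and 39.4% of all genes called. INSIG1 is itself raised by SREBP activity. Its log2 changes were 3.67 ± 0.62, adjusted p = 0.00231, with preconditioning and 2.76 ± 0.61, adjusted p = 0.0251, with FCCP. Between preconditioning+FCCP and preconditioning the change was −3.24 ± 0.61, adjusted p = 0.000781. FCCP libraries held 99.85 to 1065 CPM of INSIG1, and the lowest lay within the control range of 35.2 to 114.6 CPM. Whether its FCCP call holds without single libraries was not tested. SREBF2 rose with preconditioning (1.41 ± 0.28, adjusted p = 0.00391) and fell to 163 ± 62.5 CPM in preconditioning+FCCP libraries, against 455 ± 48.0 CPM with preconditioning alone (log2 change −1.48 ± 0.28, adjusted p = 0.000838). INSIG1 (−6.01 ± 0.86, adjusted p = 0.000618), SREBF1 (−2.61 ± 0.35, adjusted p = 0.000519) and SREBF2 (−2.26 ± 0.40, adjusted p = 0.00214) had a called negative interaction. None of the 7 had a called positive one. Among all genes 9.6% were called negative and 9.38% positive.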

How the data were processed

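The study deposited RNA-seq of AC16 cells in 4 treatment groups. Per the labels' protocols, poly-A RNA was made into libraries with a directional or a non-directional kit. The deposited values are raw counts of reads per Ensembl gene; the submitters' processing notes name HISAT2, HTSeq and hg19, with no versions or settings, and no source used here gives the annotation release. Reads on no gene (2.13% to 5.2% per library), on several genes (11.0% to 12.4%) or at several places (3.16% to 11.5%) were counted for no gene, which lowers genes that overlap or have copies.

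Symbols came from the reference tables, lengths from GENCODE 29 and promoters from RefSeq. edgeR 4.0.16 (R 4.3.3) was run on the counts with filterByExpr, TMM scaling and 1 quasi-likelihood fit of 13 libraries with a term per group. Benjamini-Hochberg adjusted p over 16756 genes was called under 0.05, and the SE is the size of the log2 change over the root of F. The fit was tested on simulated data first. All 9 genes are named in every comparison; of other lists, the counts and up to 3 called genes of the smallest adjusted p (2 values where none was called); and the 10 genes most and 3 least like the 9. Some genes of these lists are not reported here. The 9 genes, the lists and the tests were chosen with earlier results of these data known. Alternatives were DESeq2 1.42.0, limma-voom (limma 3.58.1), other scaling and filters, the compared groups alone, the replicate number as a block, library sets and leaving libraries out.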

Additional observations from a re-analysis of the deposited data

Results flagged for a closer look

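Preconditioning 3 stood apart from the other 3 preconditioning libraries in 3 genes. It was the lowest library of its group for SQLE, DHCR7 and MSMO1, at 137, 226 and 182 CPM. Its gap to the next library made up 0.8964, 0.8757 and 0.8387 of the group's whole range for these genes. Chance gives a gap of this size in about 1 in 20 groups, and the 9 genes share their libraries. Preconditioning 3 had the lowest mitochondrial share of its group, 1.00% against 1.47% to 1.85%, and the lowest share of reads on no gene, 2.13% against 3.2% to 3.71%. Their part in its sterol levels was not tested. All 3 genes stayed called higher against control without this library.

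The effect of FCCP in preconditioned cells differed from that in cells without preconditioning, by the test of the difference itself, in 7 genes. The log2 differences were −4.42 for DHCR7, −3.64 for MSMO1, −3.47 for LSS, −1.98 for SQLE, −1.86 for NSDHL, −1.62 for HSD17B7 and −0.81 for SC5D, all of 1 sign.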

How the results depend on the processing

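Of the values of single genes under another setting, 1215 kept their direction and their side of the threshold, 65 lost the call, 40 gained one and 25 changed sign. The number of the 9 genes called with preconditioning stayed within 1.5 times the value given above under every setting run. So did the numbers in preconditioning+FCCP against preconditioning and in the interaction. The interaction could not be run within a library set, since neither set holds every group. Leaving out each library the numbers ran, in this order, over 7 to 9, 6 to 7 and 6 to 8. In FCCP against control, in place of 4 genes, 7 were called without a filter on low counts, 7 without control 3, FCCP 1 and preconditioning+FCCP 3, and 0 with the compared groups alone, within the higher set, at an adjusted p under 0.01 and with the replicate number as a block (7, 6, 8 and 7 at an unadjusted p under 0.05, by edgeR), with 0 to 6 when each library was left out. Between preconditioning+FCCP and FCCP 5 genes became 3 with a term for the set and 0 within the higher set (4 to 6 leaving out each library). Between preconditioning+FCCP and control 1 gene became 3 within the lower set and 4 without the 3 libraries (1 to 2 leaving out each library). The cause was not tested.

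Sign changes were of log2 changes not called in the text above. In preconditioning+FCCP against control, DHCR7 was at 0.12 by library totals, 0.12 within the lower set and 0.040 without the 3 libraries, SQLE at −0.12 within the higher set and −0.15 without the 3 libraries, NSDHL at −0.27 within the lower set, and CYP51A1 at −0.10 with a set term and −0.50 within the lower set. Leaving out each library DHCR7 ran from −0.54 to 0.059, SQLE from −0.17 to 0.21, NSDHL from −0.15 to 0.17 and CYP51A1 from −0.16 to 1.83. CYP51A1 was at 0.61, 0.95 and 1.00 in FCCP against control with a set term, within the higher set and without the 3 libraries (−1.27 to 0.89 leaving out each library), and at −0.72 and −0.25 in preconditioning+FCCP against FCCP with a set term and within the higher set. EBP was at 0.30 with a set term and 0.49 within the lower set in preconditioning against control.

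The replicate numbers did not pair the libraries, with correlations of deviations between −0.20 and 0.16 for equal numbers. As a replicate block they left 53 FCCP calls among all genes, against 590 without it, and also ended the calls of HSD17B7 in preconditioning+FCCP against preconditioning and of SC5D in the interaction. Library totals as scaling put the median of all genes at up to 0.19 (log2). The split of higher and lower calls was then 229 and 166 for FCCP (268 and 322 with TMM), 2025 and 1644 for preconditioning (1765 and 2185), 3487 and 1873 for preconditioning+FCCP against control (2511 and 2718) and 3981 and 2229 for preconditioning+FCCP against FCCP (3007 and 2969). Over all genes, leaving out each library gave 142 to 893 calls for FCCP and 1506 to 6057 for preconditioning, and a set term left 459 for preconditioning, against 3950. Depth limits CYP51A1, which was too low to be tested when control and FCCP, or preconditioning+FCCP and FCCP, were fitted alone.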

Other observations

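Further lists cover the breakdown of sterol enzymes and what becomes of sterols. Of 6 genes that take part in this breakdown, none was called by edgeR with FCCP (0 at an unadjusted p under 0.05), and 1 rose and 1 fell with preconditioning, where 23.6% of all genes were called. The ubiquitin ligase RNF145 averaged 68.4 ± 23.1 CPM in preconditioning+FCCP, 129.9 ± 8.66 CPM in preconditioning, 54.5 ± 18.6 CPM in FCCP and 59.2 ± 17.2 CPM in control libraries (SD, n = 3, 4, 3 and 3). It rose with preconditioning (1.13 ± 0.26, adjusted p = 0.00743) and fell when preconditioning+FCCP was set against preconditioning (−0.93 ± 0.26, adjusted p = 0.0101). UBXN8 fell with preconditioning (−1.08 ± 0.23, adjusted p = 0.00562). In preconditioning+FCCP against control the ligase RNF139 (0.92 ± 0.23, adjusted p = 0.00842) rose and UBXN8 fell (−1.21 ± 0.25, adjusted p = 0.00298).

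Of 8 genes of cholesterol storage, transport out of lysosomes and oxysterol synthesis, 6 were tested; 2 rose with preconditioning, 1 rose with FCCP, and 4 rose and 1 fell in preconditioning+FCCP against control, where 23.6%, 3.52% and 31.2% of all genes were called. CYP27A1, the mitochondrial sterol hydroxylase, averaged 14.9 ± 4.25 CPM in preconditioning+FCCP, 10.6 ± 2.26 CPM in preconditioning, 15.0 ± 5.01 CPM in FCCP and 5.48 ± 0.498 CPM in control libraries (SD, n = 3, 4, 3 and 3). It rose against control with both treatments (1.44 ± 0.30, adjusted p = 0.00274), with preconditioning (0.95 ± 0.28, adjusted p = 0.0243) and with FCCP (1.45 ± 0.30, adjusted p = 0.0193), and its interaction was not called (−0.96 ± 0.40, adjusted p = 0.099). NPC1, which carries cholesterol out of lysosomes, rose with preconditioning (0.93 ± 0.32, adjusted p = 0.045). CYP46A1, a hydroxylase known from brain, rose in preconditioning+FCCP against control (3.09 ± 0.60, adjusted p = 0.00205), at 2.96 ± 1.76 CPM in preconditioning+FCCP and 0.344 ± 0.159 CPM in control libraries (SD, n = 3 each). NPC2, the partner of NPC1 in the lysosome, rose in the same comparison (0.66 ± 0.21, adjusted p = 0.0247).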
